A study of Mus musculus with 12 samples.

Results

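The Rab genes encode the largest branch of the small GTPases that direct vesicle traffic. They were taken as every gene on the arrays whose mouse symbol is Rab followed by a number and, where present, a letter and a further digit. By that rule 57 of the 22911 named genes on the array were Rab genes. A total of 47 of them, among 13283 genes of the whole array, had a probe that cleared the scanner's background limit on each of the 3 arrays in 1 group or more, and were tested. The other 10 were Rab15, Rab17, Rab25, Rab26, Rab38, Rab39b, Rab3c, Rab40b, Rab42 and Rab9b. A gene dim in 1 group passed this filter only where another group was brighter, so the counts below describe the 47 genes and not the whole family.

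The cells were macrophages from the abdominal cavity of C57/BL6 mice, cultured in DMEM with 10% fetal bovine serum, and hybridised to 1-colour Agilent mouse arrays. The 4 groups, with 3 arrays each, were GPR15 knockout cells given lipopolysaccharide (LPS, a bacterial cell wall product that activates Toll-like receptor 4) at 100 ng/ml for 4 h, knockout cells given PBS, wild-type cells given LPS and wild-type cells given PBS. They are called KO LPS, KO PBS, WT LPS and WT PBS here. GPR15 is a G protein-coupled receptor, and the labels describe the knockout only by its name, with no allele, age, sex or number of animals per array, so p-values measure the spread between arrays of a group. Whether arrays came from separate animals is not stated in the sources used here.

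A Rab protein switches between a GDP-bound form held in the cytosol by a chaperone and a GTP-bound form that sits on a membrane by a lipid anchor. Guanine nucleotide exchange factors (GEFs) load it with GTP, GTPase-activating proteins (GAPs) end the active state, and effectors that bind the GTP form tether, move and fuse the vesicle. In macrophages Rab proteins steer phagosomes from their early to their lysosomal stage, return receptors to the surface and carry cytokines and granule contents out of the cell.

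All values below are levels on the log2 scale of the spot signal relative to the 75th percentile of its own array, and a difference between groups is called where limma's moderated test gave an adjusted p below 0.05 over the 13283 genes. Macrophage markers were well above background on all arrays for 10 of 10 genes. After LPS 6 of these 10 were called lower and 1 higher in KO cells, and 6 lower and 2 higher in WT cells. Beside these and the marker counts below, 32% of all genes tested were lower and 35.1% higher in KO cells. In WT cells the shares were 31% and 33.7%. B-cell markers were also present, 13 of 13 on all arrays, and their summed linear level relative to the array's 75th percentile was 70.1 to 72.6 in KO LPS, 135.8 to 142.3 in KO PBS, 85.3 to 101.8 in WT LPS and 160.5 to 203.9 in WT PBS. B-cell members were called lower after LPS in 10 of 13 cases in KO and 9 of 13 in WT cells, and higher in 1 of 13 in each. The summed mast-cell markers were at 187.9 to 204.8 in KO LPS, 99.1 to 116.3 in KO PBS, 240.7 to 263.2 in WT LPS and 111.1 to 149.7 in WT PBS, with 1 of 9, Mrgprb1, not well above background on any array. The members of that list were split, with 3 of 8 tested called higher and 1 lower after LPS in KO cells, and 3 higher and 2 lower in WT cells. T-cell markers summed to 13.1 to 14.7 in KO LPS, 20.7 to 22.0 in KO PBS, 15.3 to 15.9 in WT LPS and 23.5 to 29.2 in WT PBS, with 2 of 10 tested called higher and 3 lower after LPS in KO cells, and 1 higher and 7 lower in WT cells. Dendritic-cell markers summed to 74.4 to 81.9 in KO LPS, 23.5 to 26.0 in KO PBS, 82.3 to 90.1 in WT LPS and 27.6 to 33.9 in WT PBS, with 4 of 5 tested called higher in each genotype and Xcr1 and Itgae not well above background on any array. In such cultures fewer cells of a type and less RNA per cell cannot be told apart. The part of these other cells in the Rab results below was not tested. The single Gpr15 probe cleared background on 0 of 12 arrays, so the arrays do not check the knockout label.

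The arrays lay on 2 slides, slide 1 with the 6 WT arrays and 2 of the KO PBS arrays (replicates 1 and 2), slide 2 with the 3 KO LPS arrays and KO PBS replicate 3. KO and WT cells after LPS therefore never shared a slide. Xist was well above background on 0 of 6 KO arrays and 6 of 6 WT arrays, and Ddx3y, Kdm5d and Uty on 6 of 6 KO arrays and 0 of 6 WT arrays, so each comparison of KO with WT also compares cells that differ in these sex-linked transcripts. Of the tested Rab genes, Rab9 and Rab33a lie on the X chromosome.

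Promoter windows of 250 bases before the RefSeq start were given for 48 of the 57 Rab genes (GRCm38.p6). They are shown for 5 genes chosen after their values were seen, so motifs among these 5 do not give the share for the family. Rab7b, with the largest fall, had no window. Rab20 and Rab31 had the largest rises after LPS, Rab5a is the early endosome gene that rose beside them, Rab19 fell by over 2-fold in both genotypes, and Rab9 was the only Rab gene whose LPS change was called different between genotypes. Rab20 is from chr8:11478641-11478890 on the minus strand, Rab31 from chr17:65772753-65773002 on the minus strand, Rab5a from chr17:53478984-53479233 on the plus strand, Rab19 from chr6:39381103-39381352 on the plus strand and Rab9 from chrX:166479868-166480117 on the minus strand. Each is written 5′ to 3′ toward the start, and capitals mark a match to 1 of 4 motifs searched on both strands.
Rab20: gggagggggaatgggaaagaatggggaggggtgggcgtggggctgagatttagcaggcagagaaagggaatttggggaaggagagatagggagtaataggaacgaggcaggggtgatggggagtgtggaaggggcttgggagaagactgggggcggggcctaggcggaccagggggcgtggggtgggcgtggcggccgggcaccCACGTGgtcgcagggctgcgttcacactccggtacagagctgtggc
Rab31: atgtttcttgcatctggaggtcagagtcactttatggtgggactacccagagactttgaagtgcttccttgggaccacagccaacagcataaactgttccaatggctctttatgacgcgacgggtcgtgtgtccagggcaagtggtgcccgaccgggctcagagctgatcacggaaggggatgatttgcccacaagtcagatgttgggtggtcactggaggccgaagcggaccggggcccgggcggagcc
Rab5a: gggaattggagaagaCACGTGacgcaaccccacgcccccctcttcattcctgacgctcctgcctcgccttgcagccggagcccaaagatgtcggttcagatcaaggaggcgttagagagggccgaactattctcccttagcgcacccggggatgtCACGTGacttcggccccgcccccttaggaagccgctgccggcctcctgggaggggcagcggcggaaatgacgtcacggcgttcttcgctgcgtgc
Rab19: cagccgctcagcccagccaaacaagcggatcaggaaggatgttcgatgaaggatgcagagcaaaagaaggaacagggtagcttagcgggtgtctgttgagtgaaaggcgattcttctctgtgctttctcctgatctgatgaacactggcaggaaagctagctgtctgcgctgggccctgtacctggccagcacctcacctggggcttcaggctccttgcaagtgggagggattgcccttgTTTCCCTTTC
Rab9: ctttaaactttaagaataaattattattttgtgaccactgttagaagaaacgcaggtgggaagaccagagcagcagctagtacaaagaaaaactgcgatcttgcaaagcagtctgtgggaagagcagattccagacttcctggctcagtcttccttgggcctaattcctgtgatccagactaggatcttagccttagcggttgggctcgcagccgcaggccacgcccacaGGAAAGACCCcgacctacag
The capitals are the E-box CACGTG in Rab20, 46 bases before the start, and in Rab5a, 235 and 95 bases before it. In Rab19 they are the interferon response element (GAAA, 2 bases of any kind, GAAA) on the reverse strand, 10 bases before the start, and in Rab9 the NF-kB motif (GGG, 2 bases of any kind, TTTCC) on the reverse strand, 20 bases before it. The Rab31 window held none of the 4 motifs.

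Across the 48 windows the NF-kB motif was found in 2 Rab genes, Rab28 and Rab9, against 1.40% of all 27025 windows in the table. The E-box was found in 4 Rab genes, Rab20, Rab21, Rab23 and Rab5a, against 6.05% of all windows. AP-1, TGANTCA, was found in Rab34 alone among them, against 6.87%, and the interferon response element in Rab19 alone, against 3.04%. No 2 motif matches overlapped in these windows. Those of Rab3a, Rab3b, Rab3d, Rab6b and Rab33a, which also fell by over 2-fold in both genotypes, held none of the 4 motifs. A match is a description of letters and not of binding.

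Every Rab change of at least 2-fold called after LPS was a fall. In KO cells 30 of 47 (63.8%) were called, 10 higher and 20 lower, against 67% of all genes tested (35.1% higher and 32% lower). In WT cells 34 of 47 (72.3%) were called, 11 higher and 23 lower, against 64.7% of all genes (33.7% higher and 31% lower). The median Rab change was -0.10 in KO and -0.17 in WT cells, beside 0.04 in KO and 0.03 in WT cells over all genes. At least 2-fold falls numbered 9 in KO and 8 in WT cells, against 7.26% and 8.05% of all genes lower by that much, and no Rab gene rose by 2-fold in KO or WT cells, against 7.09% and 7.54% of all genes. Some of these genes passed the filter only through their PBS arrays. Among the 41 Rab genes with a probe well above background on all 12 arrays, 10 were called higher and 15 lower in KO cells, against 35.8% and 32.6% of 11781 genes. In WT cells 11 were higher and 18 lower, against 35.5% and 31% of those genes. Falls of at least 2-fold then numbered 6 in KO and 5 in WT cells, and rises of that size 0 in each. The share of the 11781 genes past 2-fold is not given here, so these last counts have no background beside them.

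Quantile normalisation in place of the 75th percentile moved the split of these calls to 6 higher and 27 lower in KO cells and to 6 higher and 30 lower in WT cells. That scaling also moved the calls of all genes, to 31.1% higher and 36.3% lower in KO cells and to 28.4% higher and 35.7% lower in WT cells.

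Both genotypes showed much the same list. A set of 19 genes was called lower in both (Rab13, Rab19, Rab1b, Rab24, Rab27a, Rab28, Rab29, Rab30, Rab33a, Rab34, Rab37, Rab39, Rab3a, Rab3b, Rab3d, Rab40c, Rab4b, Rab6b and Rab7b), and 8 were called higher in both (Rab12, Rab20, Rab22a, Rab2a, Rab31, Rab35, Rab5a and Rab8b). Across the 47 genes the change in KO cells and the change in WT cells had a Pearson r of 0.96 and a Spearman rho of 0.94, given as a description, since the genes share the same 12 arrays. The share of all genes called alike in both genotypes, and their correlation, are not given here. The agreement is therefore not shown to be particular to the Rab genes. The 11 genes called in neither genotype were Rab10, Rab11b, Rab14, Rab1a, Rab23, Rab27b, Rab33b, Rab4a, Rab6a, Rab7 and Rab8a. They include Rab7, the housekeeping GTPase of late endosomes, and Rab6a, that of the Golgi.

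**Figure D1:**
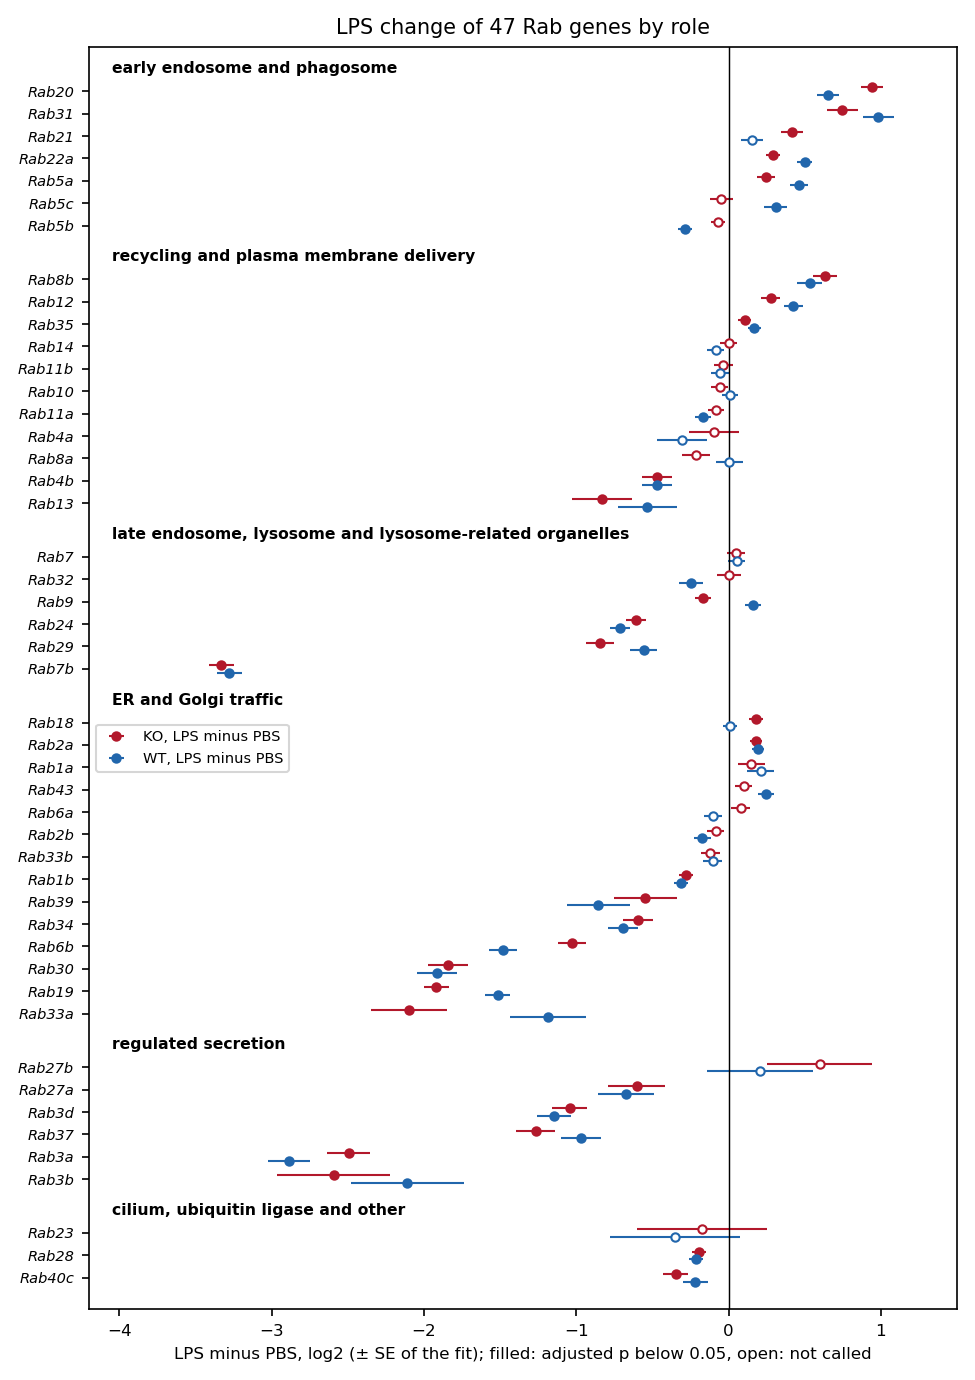
LPS minus PBS change (log2, horizontal axis, ± SE of the fit) of the 47 tested Rab genes in KO (red) and WT cells (blue), sorted by role; filled points were called at an adjusted p below 0.05 and open points were not. The early endosome group holds the most called rises, and the falls beyond 1 on the log2 scale lie among late endosome, Golgi and secretion genes.

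The early endosome and phagosome genes, which receive cargo just after uptake, were the group with most rises. Of 7 tested, 5 were called higher and 0 lower in KO cells, and 5 higher and 1 lower in WT cells, with medians of 0.29 in KO and 0.46 in WT cells. Of all genes 35.1% were called higher and 32% lower in KO cells, and 33.7% higher and 31% lower in WT cells. These shares also stand beside the counts of the role groups below. With quantile normalisation 4 of the 7 were called higher and 2 lower in KO cells, and 4 higher and 1 lower in WT cells. The array values of Rab20, Rab31, Rab5a and the other risers are given here although the naming rule did not ask for them, so they were chosen after their values were seen.

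Rab20, a GTPase of maturing phagosomes, was at 1.45, 1.53 and 1.43 in KO LPS, 0.61, 0.59 and 0.37 in KO PBS, 1.61, 1.48 and 1.63 in WT LPS, and 0.83, 0.94 and 0.98 in WT PBS. All LPS arrays were above all PBS arrays. It rose by 0.94 ± 0.07 (SE, 1.92-fold, adjusted p = 3.58e-07) in KO cells and by 0.65 ± 0.07 (1.57-fold, adjusted p = 6.71e-06) in WT cells. Its window above carries the E-box nearest to the start among the 5 shown, though that of Rab21, not shown, lies nearer, at 30 bases.

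Rab31, which carries cargo between the trans-Golgi network and endosomes, was at 2.70, 2.63 and 2.91 in KO LPS, 2.10, 1.94 and 1.97 in KO PBS, 2.82, 2.89 and 2.59 in WT LPS, and 1.84, 1.91 and 1.61 in WT PBS. Again no LPS array overlapped the PBS arrays. The rise was 0.75 ± 0.10 (1.68-fold, adjusted p = 4.45e-05) in KO cells and 0.98 ± 0.10 (1.98-fold, adjusted p = 3.93e-06) in WT cells, the largest of the tested Rab genes in WT cells.

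The 3 Rab5 genes, whose proteins drive fusion of early endosomes, differed in direction. Rab5a was at 3.55, 3.58 and 3.52 in KO LPS, 3.41, 3.34 and 3.16 in KO PBS, 3.64, 3.73 and 3.69 in WT LPS, and 3.23, 3.24 and 3.21 in WT PBS. Its arrays did not overlap within a genotype, and it rose by 0.25 ± 0.06 in KO (adjusted p = 0.00275) and 0.46 ± 0.06 in WT cells (adjusted p = 2.08e-05); with quantile normalisation the KO change was 0.12 and not called. Rab5b was -0.07 ± 0.04 in KO cells (adjusted p = 0.188) and fell by 0.28 ± 0.04 in WT cells (adjusted p = 0.000121). Rab5c was -0.05 ± 0.08 in KO cells (adjusted p = 0.597) and rose by 0.31 ± 0.08 in WT cells (adjusted p = 0.00362), or by 0.10, not called, with quantile normalisation. The difference between Rab5 genes was not tested.

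Rab22a, which acts on endosome recycling, rose by 0.29 ± 0.05 in KO and 0.50 ± 0.05 in WT cells. Rab21, linked to integrin uptake, rose by 0.42 ± 0.07 in KO cells (adjusted p = 0.000282) and was 0.16 ± 0.07 in WT cells (adjusted p = 0.0744). Neither difference between the genotypes' changes was called, with an adjusted interaction p of 0.108 for Rab22a and 0.174 for Rab21.

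**Figure D2:**
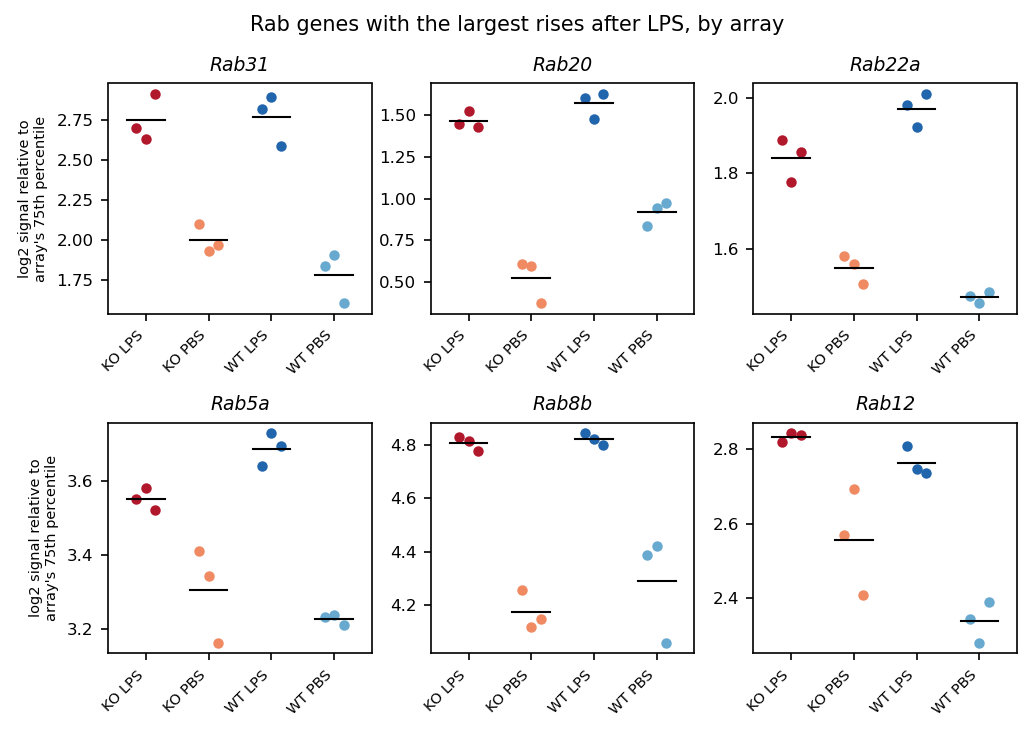
Level (log2 signal relative to the array's 75th percentile, vertical axis) of 6 Rab genes with the largest rises called in both genotypes, by group, with 1 point per array and a bar at the group mean. Within each genotype every LPS array lies above every PBS array for all 6 genes, and the largest rises are those of Rab20 in KO cells and Rab31 in WT cells.

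Of 11 genes of recycling and delivery to the plasma membrane, 3 were called higher and 2 lower in KO cells, and 3 higher and 3 lower in WT cells. This split depended on the scaling: with quantile normalisation 2 were called higher and 6 lower in each genotype. Rab8b, an exocytic GTPase, was at 4.83, 4.82 and 4.78 in KO LPS, 4.25, 4.12 and 4.15 in KO PBS, 4.84, 4.82 and 4.80 in WT LPS, and 4.39, 4.42 and 4.06 in WT PBS. Its LPS arrays formed a tight band above the PBS arrays, with a rise of 0.63 ± 0.08 in KO and 0.53 ± 0.08 in WT cells. Its paralogue Rab8a was -0.21 ± 0.09 in KO (adjusted p = 0.0539) and 0.01 ± 0.09 in WT cells (adjusted p = 0.962).

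Rab12, which sends transferrin receptor to degradation, rose by 0.28 ± 0.06 in KO and 0.43 ± 0.06 in WT cells. Rab35, a fast recycling GTPase, was called higher by 0.11 ± 0.04 in KO and 0.17 ± 0.04 in WT cells, but its direction turned with quantile normalisation, to -0.026 in KO and -0.031 in WT cells. The falls were small to moderate. Rab4b, which recycles receptors from early endosomes, fell by 0.47 ± 0.10 in KO and in WT cells, while Rab11a, of the recycling endosome, was -0.08 ± 0.05 in KO (adjusted p = 0.19) and fell by 0.17 ± 0.05 in WT cells (adjusted p = 0.0138, and 0.061 without WT LPS replicate 1). Rab13, a dim gene, fell by 0.83 ± 0.20 in KO cells, where 1 of 3 LPS arrays was well above background, and was at least 1.03-fold lower in WT cells, where no LPS array was. In WT cells the Rab13 call was lost without WT PBS replicate 1, 2 or 3 or WT LPS replicate 1 or 3. Rab10, which carries Toll-like receptor 4 to the macrophage surface, was -0.06 ± 0.05 in KO (adjusted p = 0.365) and 0.01 ± 0.05 in WT cells (adjusted p = 0.872); with quantile normalisation it was -0.16 and called lower in WT cells.

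The late endosome and lysosome genes held the largest fall of the family. Of 6 tested, 0 were called higher and 4 lower in KO cells, and 1 higher and 4 lower in WT cells. With quantile normalisation 0 were higher and 4 lower in KO cells, and 0 higher and 5 lower in WT cells. Rab7b, whose protein has been described to send Toll-like receptor 4 to lysosomes in macrophages, was at 0.57, 0.44 and 0.71 in KO LPS, 3.95, 3.95 and 3.81 in KO PBS, 0.21, 0.19 and 0.42 in WT LPS, and 3.55, 3.47 and 3.64 in WT PBS. The LPS and PBS arrays were separated by over 3 units on the log2 scale in both genotypes. It fell by 3.33 ± 0.08 in KO cells (10.1-fold lower, adjusted p = 1.47e-10) and fell by 3.28 ± 0.08 in WT cells (9.69-fold lower, adjusted p = 1.15e-10), and its call held under every alternative run. Its namesake Rab7 was 0.05 ± 0.06 in KO and in WT cells, called in neither; with quantile normalisation Rab7 was -0.14 and called lower in WT cells.

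Rab29, a trans-Golgi and lysosome partner of the kinase LRRK2, fell by 0.84 ± 0.09 in KO and 0.56 ± 0.09 in WT cells, and Rab24, linked to autophagy, by 0.60 ± 0.07 in KO and 0.71 ± 0.07 in WT cells. Rab32, of lysosome-related organelles, was 0.00 ± 0.08 in KO cells (adjusted p = 0.976) and fell by 0.25 ± 0.08 in WT cells (adjusted p = 0.0136). That call was lost without WT PBS replicate 1, WT LPS replicate 1 or WT LPS replicate 2, at an adjusted p of up to 0.062.

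Rab9, which returns mannose 6-phosphate receptors from late endosomes to the Golgi, changed in opposite directions. It was at 2.25, 2.36 and 2.29 in KO LPS, 2.45, 2.54 and 2.42 in KO PBS, 2.56, 2.51 and 2.50 in WT LPS, and 2.37, 2.29 and 2.43 in WT PBS, chosen here after its values were seen. LPS arrays lay below PBS arrays in KO cells and above them in WT cells. It fell by 0.17 ± 0.05 in KO cells (adjusted p = 0.0141) and rose by 0.16 ± 0.05 in WT cells (adjusted p = 0.0178), and the difference of -0.33 ± 0.07 between these changes had an adjusted p of 0.0277. It was the 1 of 47 Rab genes called for that difference, against 4.31% of all genes (0.926% with a higher and 3.39% with a lower value of that difference). With the slide as a term the KO change was -0.12 with an adjusted p of 0.174, and the interaction was not called. The interaction call was lost in 12 of 22 alternatives, among them quantile normalisation, the mean of all kept probes and both fits with the slide. Of the 12 arrays left out singly, 8 cost the call, namely KO LPS replicates 1 and 3, KO PBS replicates 1 and 2, WT LPS replicates 1 and 2 and WT PBS replicates 1 and 2.

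ER and Golgi traffic was the largest role group, with 2 of 14 called higher and 7 lower in KO cells, and 2 higher and 8 lower in WT cells. With quantile normalisation none was higher in KO or WT cells, and 8 in KO and 11 in WT cells were lower. The rises were small. Rab2a, which acts between the ER and the Golgi, was called higher by 0.18 ± 0.04 in KO and 0.19 ± 0.04 in WT cells, though at 0.07 and 0.01, not called, with quantile normalisation. The falls were much larger, at 4 genes past 2-fold in each genotype.

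Rab30, a Golgi GTPase, was at -2.59, -3.08 and -3.00 in KO LPS, -1.02, -0.99 and -1.13 in KO PBS, -2.77, -2.66 and -2.82 in WT LPS, and -0.84, -1.005 and -0.65 in WT PBS. It fell by 1.84 ± 0.13 in KO (3.58-fold lower, adjusted p = 2.32e-07) and 1.91 ± 0.13 in WT cells (3.77-fold lower, adjusted p = 1.31e-07), with no overlap of LPS and PBS arrays. Rab19 was at -1.90, -1.97 and -1.82 in KO LPS, 0.041, 0.030 and -0.0043 in KO PBS, -1.34, -1.33 and -1.39 in WT LPS, and 0.031, 0.10 and 0.35 in WT PBS. The PBS levels of both genotypes overlapped, the LPS levels did not, and the fall was 1.92 ± 0.08 in KO (adjusted p = 4.24e-09) and 1.52 ± 0.08 in WT cells (adjusted p = 1.79e-08). The interaction for Rab19 was -0.40 ± 0.12 with an adjusted p of 0.0817.

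Rab6b, the paralogue of the Golgi GTPase Rab6a, was at -1.01, -0.92 and -0.73 in KO LPS, 0.15, 0.14 and 0.15 in KO PBS, -1.25, -1.31 and -1.40 in WT LPS, and 0.07, 0.07 and 0.34 in WT PBS. All LPS arrays lay below all PBS arrays, and the fall was 1.03 ± 0.09 in KO (adjusted p = 1.23e-06) and 1.48 ± 0.09 in WT cells (adjusted p = 4.63e-08). Rab6a was 0.08 ± 0.06 in KO and -0.10 ± 0.06 in WT cells, called in neither. Rab33a, a Golgi GTPase gene, was at -4.52, -4.90 and -4.18 in KO LPS, -2.07, -2.68 and -2.54 in KO PBS, -4.78, -4.19 and -4.40 in WT LPS, and -3.11, -3.59 and -3.12 in WT PBS. It was dim after LPS, with 1 of 3 arrays well above background in KO LPS and 1 of 3 in WT LPS, so it passed the filter only through its PBS arrays. The fall was 2.10 ± 0.25 in KO (adjusted p = 1.54e-05) and 1.18 ± 0.25 in WT cells (adjusted p = 0.00127), while Rab33b, which binds the autophagy protein Atg16l1, was -0.12 ± 0.06 in KO and -0.10 ± 0.06 in WT cells, called in neither.

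Other Golgi genes moved less. Rab34, which places lysosomes near the Golgi, fell by 0.60 ± 0.10 in KO and 0.69 ± 0.10 in WT cells, and Rab1b, of ER to Golgi transport, by 0.28 ± 0.04 in KO and 0.31 ± 0.04 in WT cells. Rab1a was 0.15 ± 0.09 in KO (adjusted p = 0.151) and 0.21 ± 0.09 in WT cells (adjusted p = 0.0526). Rab39 fell by 0.55 ± 0.21 in KO (adjusted p = 0.0349) and 0.86 ± 0.21 in WT cells (adjusted p = 0.00311), and the KO call was lost without KO PBS replicate 2 or 3 or KO LPS replicate 1 or 3. Rab18, of lipid droplets and the ER, rose by 0.18 ± 0.05 in KO cells (adjusted p = 0.00596) and was 0.01 ± 0.05 in WT cells (adjusted p = 0.873), while Rab43 was 0.10 ± 0.06 in KO (adjusted p = 0.127) and rose by 0.25 ± 0.06 in WT cells (adjusted p = 0.00186). With quantile normalisation Rab18 in KO cells and Rab43 in WT cells were no longer called, and Rab18 in WT cells was -0.14 and called lower.

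The regulated secretion genes, which dock granules and secretory vesicles at the plasma membrane, were mostly called lower, by falls of unlike size. Of 6 tested, 5 were called lower and 0 higher in both genotypes, with medians of -1.15 in KO and -1.06 in WT cells, and the same counts came with quantile normalisation. The exception was Rab27b, at 0.60 ± 0.35 in KO (adjusted p = 0.146) and 0.20 ± 0.35 in WT cells (adjusted p = 0.631). Rab3a cleared background on 8 of 12 arrays and Rab3b on 10, and both passed the filter only through their PBS arrays. The filter thus favoured falls in these genes, and the counts and medians of the group include them. Of the other genes called lower, Rab27a cleared background on 11 arrays and Rab37 and Rab3d on all 12.

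Rab3a, of synaptic and secretory vesicles, was at -4.56, -4.38 and -4.60 in KO LPS, -2.03, -1.99 and -2.03 in KO PBS, -4.43, -4.37 and -4.50 in WT LPS, and -1.59, -1.75 and -1.31 in WT PBS. It was well above background on 2 of 3 KO LPS arrays and on 0 of 3 WT LPS arrays. It fell by 2.49 ± 0.14 in KO cells (5.63-fold lower, adjusted p = 2.79e-08) and was at least 5.29-fold lower in WT cells, a bound set by the dimmest signals that still cleared background on those arrays (adjusted p = 6.76e-09).

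Rab3b was at -4.77, -3.54 and -4.26 in KO LPS, -1.69, -1.11 and -1.99 in KO PBS, -4.40, -3.54 and -3.11 in WT LPS, and -1.82, -1.72 and -1.18 in WT PBS. It was well above background on 2 of 3 arrays of each LPS group and spread widely among them, yet no LPS array reached a PBS array. The fall was 2.59 ± 0.37 in KO (adjusted p = 6.84e-05) and 2.11 ± 0.37 in WT cells (adjusted p = 0.000323). Rab3d, another vesicle docking gene, was at -3.09, -3.15 and -3.07 in KO LPS, -2.03, -2.04 and -2.11 in KO PBS, -3.38, -3.64 and -3.39 in WT LPS, and -2.28, -2.23 and -2.46 in WT PBS. It fell by 1.04 ± 0.11 in KO (adjusted p = 7.61e-06) and 1.15 ± 0.11 in WT cells (adjusted p = 2.98e-06).

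Rab37, a GTPase of mast cell granules that also serves TNF secretion in macrophages, was at -2.74, -2.62 and -2.50 in KO LPS, -1.36, -1.32 and -1.38 in KO PBS, -1.94, -2.31 and -2.16 in WT LPS, and -1.32, -1.29 and -0.89 in WT PBS. It fell by 1.27 ± 0.13 in KO (adjusted p = 4.48e-06) and 0.97 ± 0.13 in WT cells (adjusted p = 3.80e-05), with no overlap of LPS and PBS arrays. The summed mast-cell markers were higher after LPS in both genotypes, with members called in both directions, and their part in the Rab37 change was not tested. Rab27a, which tethers secretory granules and lysosomes, fell by 0.60 ± 0.19 in KO (adjusted p = 0.013) and 0.67 ± 0.19 in WT cells (adjusted p = 0.00711).

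**Figure D3:**
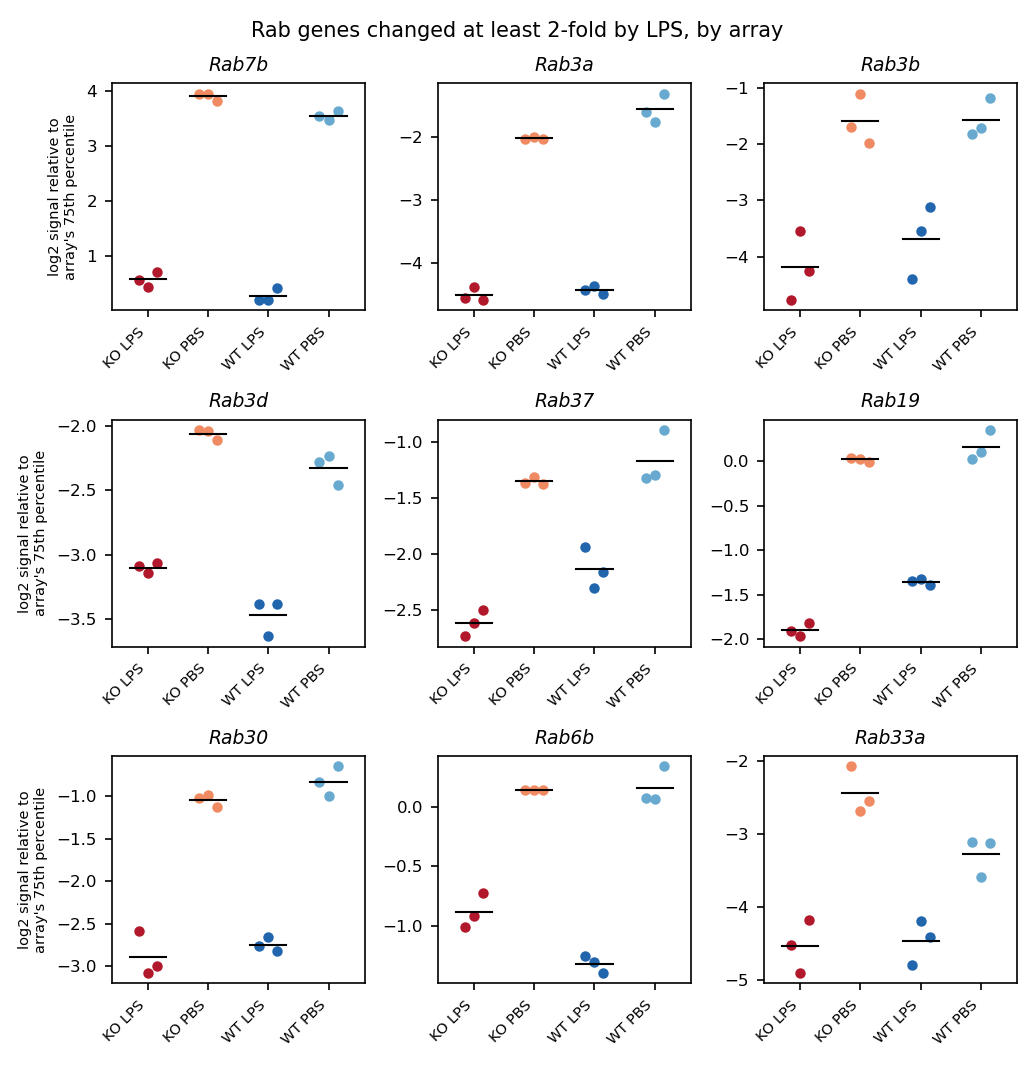
Level (log2 signal relative to the array's 75th percentile, vertical axis, scaled per gene) of the 9 Rab genes called with a change of at least 2-fold, by group, with 1 point per array and a bar at the group mean. All 9 are lower after LPS with no overlap of LPS and PBS arrays within a genotype, and Rab7b differs by over 3 on the log2 scale.

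Among the 3 genes of the remaining roles, 2 were called lower in each genotype. Rab28, of photoreceptor cilia, fell by 0.19 ± 0.05 in KO and 0.21 ± 0.05 in WT cells. Rab40c, whose protein carries a SOCS box for ubiquitin ligases, fell by 0.35 ± 0.08 in KO (adjusted p = 0.00288) and 0.22 ± 0.08 in WT cells (adjusted p = 0.0357), and the WT call was lost without WT PBS replicate 3, WT LPS replicate 1 or WT LPS replicate 2. Rab23, of Hedgehog signalling, was -0.17 ± 0.43 in KO and -0.35 ± 0.43 in WT cells and was called in neither.

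Without LPS 9 of 47 Rab genes (19.1%) were called in KO PBS against WT PBS, 5 higher and 4 lower, against 14.1% of all genes (8.06% higher and 6.05% lower). None differed by 2-fold, against 1.14% of all genes (0.693% higher and 0.452% lower). The higher ones were Rab33a (0.84 ± 0.25), Rab7b (0.35 ± 0.08), Rab12 (0.22 ± 0.06), Rab11a (0.22 ± 0.05) and Rab10 (0.21 ± 0.05). The lower ones were Rab4a (-0.66 ± 0.16), Rab3a (-0.47 ± 0.14), Rab20 (-0.39 ± 0.07) and Rab28 (-0.17 ± 0.05).

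These calls were sensitive to single arrays. The count of 9 became 1 without WT PBS replicate 1, 2 without KO PBS replicate 1, 3 without WT PBS replicate 2, 4 without KO PBS replicate 2 and 5 without KO LPS replicate 1. In the same order 6.9%, 9.65%, 7.85%, 10.2% and 10.9% of all genes were called, against 14.1% with all arrays. Within slide 1, where KO PBS replicates 1 and 2 stood beside the 3 WT PBS arrays, 4 of the 9 remained called, namely Rab12 (0.29), Rab20 (-0.32), Rab4a (-0.81) and Rab7b (0.40). With the slide as a term 6 of the 9 remained called, in a fit that called 15.2% of all genes. Rab20 was the 1 gene of the 9 whose call held under every alternative run.

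Rab4a, which recycles receptors from early endosomes, was at -2.21, -2.13 and -1.69 in KO LPS, -2.02, -2.11 and -1.62 in KO PBS, -1.46, -1.60 and -1.62 in WT LPS, and -1.21, -1.08 and -1.47 in WT PBS, again given after its values were seen. KO arrays lay below WT arrays with and without LPS. The difference in PBS had an adjusted p of 0.0203 and was lost without KO PBS replicate 1 or 2 or WT PBS replicate 1 or 2. After LPS it was -0.46 ± 0.16 with an adjusted p of 0.044, and -0.91 with an adjusted p of 0.065 with the slide as a term.

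After LPS 18 of 47 Rab genes were called in KO LPS against WT LPS, 9 higher and 9 lower, against 39.5% of all genes (20% higher and 19.5% lower). The higher ones were Rab32 (0.47 ± 0.08), Rab6b (0.44 ± 0.09), Rab3d (0.37 ± 0.11), Rab5b (0.31 ± 0.04), Rab11a (0.31 ± 0.05), Rab7b (0.30 ± 0.08), Rab21 (0.25 ± 0.07), Rab14 (0.25 ± 0.06) and Rab2b (0.19 ± 0.06). The lower ones were Rab19 (-0.54 ± 0.08), Rab37 (-0.48 ± 0.13), Rab4a (-0.46 ± 0.16), Rab5c (-0.37 ± 0.08), Rab8a (-0.33 ± 0.09), Rab9 (-0.22 ± 0.05), Rab43 (-0.21 ± 0.06), Rab28 (-0.15 ± 0.05) and Rab22a (-0.13 ± 0.05). None reached 2-fold, against 3.73% of all genes (2.74% higher and 0.994% lower). With the slide as a term 5.84% of all genes were called, and of the Rab genes Rab5b alone, at 0.32 with an adjusted p of 0.0338. The sizes of the other 17 did not all shrink. Rab4a (-0.91), Rab3d (0.44) and Rab7b (0.43) lay farther from 0 with the term, and Rab19 (-0.50), Rab37 (-0.44), Rab6b (0.43) and Rab2b (0.17) moved by less than 0.05. Rab8a turned to 0.055, and the remaining 9 moved toward 0. The SE was also larger with the term, for Rab7b 0.15 against 0.08 without it.

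The KO LPS and WT LPS arrays share no slide, so genotype and slide can be separated here only through the single KO PBS array on slide 2. Rab32 was at 4.91, 4.95 and 4.87 in KO LPS, 4.85, 4.86 and 5.02 in KO PBS, 4.36, 4.33 and 4.62 in WT LPS, and 4.74, 4.70 and 4.62 in WT PBS, and KO PBS replicate 3 was the highest of the 12 arrays. Its difference after LPS was 0.47 without a slide term and 0.31, with an adjusted p of 0.186, with one. B-cell markers moved with this comparison too, with 0 of 13 called higher and 6 lower in KO LPS than in WT LPS, and 0 higher and 7 lower in KO PBS than in WT PBS; their part in it was not tested.

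**Figure D4:**
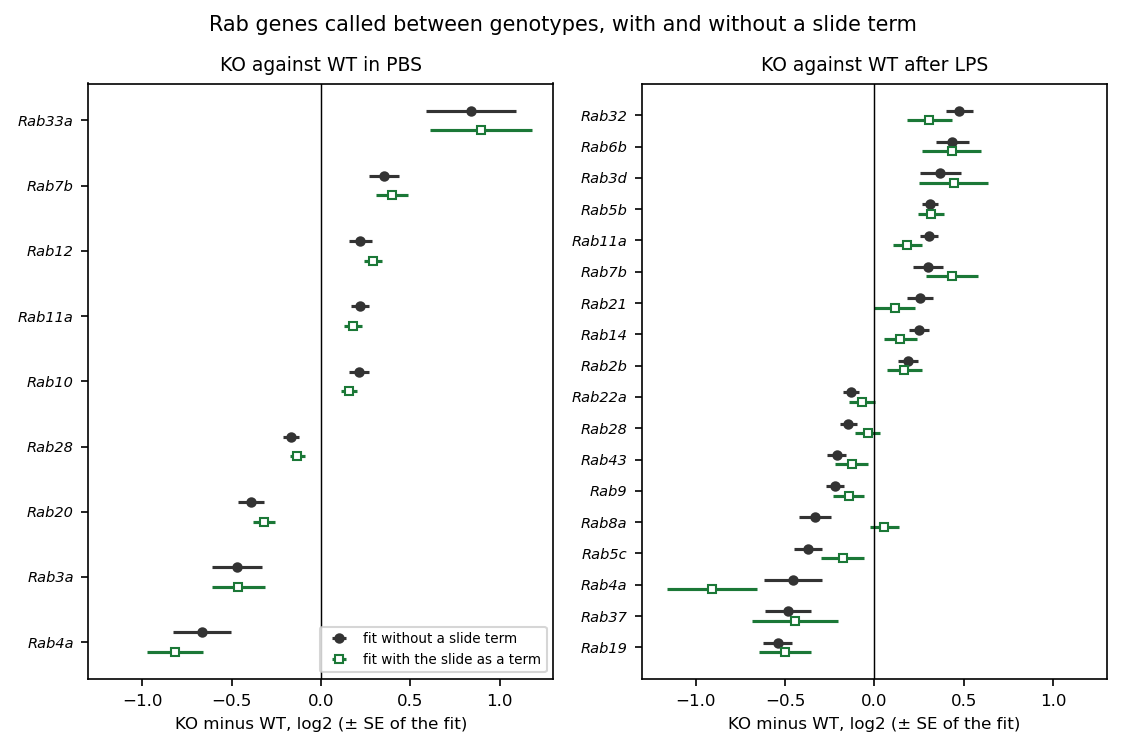
KO minus WT difference (log2, horizontal axis, ± SE of the fit) of the Rab genes called between genotypes in PBS (left, 9 genes) and after LPS (right, 18 genes), from the fit without a slide term (black circles) and with the slide as a term (green squares). In PBS 6 of the 9 genes stayed called with the term, and Rab4a and Rab12 lie farther from 0 with it. After LPS 9 green points move toward 0, Rab8a crosses it, and Rab4a, Rab3d and Rab7b move away from it.

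The number of interaction calls changed most with the slide 2 PBS array. Without KO PBS replicate 3, which leaves KO PBS on slide 1 and KO LPS on slide 2, 11 Rab genes were called in place of 1, Rab9 in both settings. The share of all genes called moved likewise, from 4.31% to 21.1%, so the larger count is not particular to the Rab genes. The 11 Rab genes were Rab12 (-0.22), Rab18 (0.21), Rab19 (-0.42), Rab21 (0.31), Rab22a (-0.23), Rab5a (-0.29), Rab5b (0.21), Rab5c (-0.42), Rab6b (0.45), Rab8a (-0.35) and Rab9 (-0.35). In that setting slide and LPS cannot be told apart in KO cells. With all arrays and the slide as a term, the 1 Rab gene called was Rab20, at 0.44 with an adjusted p of 0.0337. In that fit 2.96% of all genes were called.

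Genes that act on or through Rab proteins were listed by role from general knowledge and read in the same fit. The shares of all genes called after LPS stand beside each of these lists. They were 67% in KO cells (35.1% higher and 32% lower) and 64.7% in WT cells (33.7% higher and 31% lower). Of 37 Rab effectors tested of 46 listed, 10 were called higher and 17 lower in KO cells and 8 higher and 19 lower in WT cells, with medians of -0.16 in KO and -0.17 in WT cells. Rab11fip1, which links Rab11 to recycling endosomes, was at 1.37, 1.53 and 1.36 in KO LPS, -0.37, -0.41 and -0.40 in KO PBS, 1.21, 1.16 and 1.54 in WT LPS, and -0.56, -0.54 and -0.66 in WT PBS. It rose by 1.81 ± 0.09 in KO and 1.89 ± 0.09 in WT cells, while its partner genes Rab11a and Rab11b were not called higher. Mical1, an actin-oxidising enzyme that binds Rab proteins, fell by 1.82 ± 0.13 in KO and 1.92 ± 0.13 in WT cells. Plekhm1, which joins Rab7 to lysosome fusion, fell by 1.34 ± 0.09 in KO and 1.37 ± 0.09 in WT cells, and Plin3, a Rab9 partner and lipid droplet coat, by 0.95 ± 0.06 in KO and 1.04 ± 0.06 in WT cells.

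Of 37 GAPs tested of 38 listed, 6 were called higher and 20 lower in KO cells and 6 higher and 19 lower in WT cells. Their medians were -0.32 in KO and -0.30 in WT cells. The share of GAPs called was 70.3% in KO and 67.6% in WT cells. Tbc1d10c was at -1.36, -1.55 and -1.25 in KO LPS, 1.74, 1.71 and 1.51 in KO PBS, -0.83, -0.98 and -0.75 in WT LPS, and 1.98, 1.86 and 2.31 in WT PBS. It fell by 3.04 ± 0.12 in KO and 2.90 ± 0.12 in WT cells; it is also known as a calcineurin inhibitor of lymphocytes. Most B-cell markers were called lower after LPS too, and their part in the Tbc1d10c change was not tested. Tbc1d2, a GAP for Rab7, fell by 1.72 ± 0.11 in KO and 1.73 ± 0.11 in WT cells, and Tbc1d14, which binds Rab11 in autophagy, by 0.92 ± 0.06 in KO and 0.86 ± 0.06 in WT cells. Rabgap1l fell by 1.31 ± 0.10 in KO and 1.21 ± 0.10 in WT cells, and Tbc1d9b rose by 0.38 ± 0.06 in KO and 0.75 ± 0.06 in WT cells.

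The GEFs were balanced, with 14 of 37 called higher and 14 lower in each genotype; 38 were listed. The share of GEFs called was 75.7% in each genotype. With quantile normalisation the GEF split was 10 higher and 16 lower in KO cells and 9 higher and 16 lower in WT cells. Of all genes 31.1% were then higher and 36.3% lower in KO cells, and 28.4% higher and 35.7% lower in WT cells. Rabgef1, the GEF of Rab5, rose by 0.99 ± 0.08 in KO and 0.97 ± 0.08 in WT cells, beside the rise of Rab5a. Dennd5b fell by 1.87 ± 0.11 in KO and 1.51 ± 0.11 in WT cells, and Dennd4c, a GEF of Rab10, by 0.99 ± 0.08 in KO and 0.88 ± 0.08 in WT cells. Dennd2a, a GEF of Rab9, fell by 1.37 ± 0.12 in KO and 0.94 ± 0.12 in WT cells, and Dennd1c, a GEF of Rab35, fell by 0.67 ± 0.06 in KO and 1.09 ± 0.06 in WT cells.

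The 8 genes of the lipid anchor and membrane cycle were all tested, with 1 called higher and 4 lower in KO cells and 1 higher and 5 lower in WT cells. The share of them called was 62.5% in KO and 75% in WT cells. Rabac1, which takes Rab proteins off their cytosolic chaperone, fell by 0.56 ± 0.06 in KO and 0.61 ± 0.06 in WT cells. The chaperone gene Gdi2 fell by 0.43 ± 0.05 in KO and 0.41 ± 0.05 in WT cells. Pde6d, a prenyl-binding chaperone, fell by 0.32 ± 0.05 in KO and 0.26 ± 0.05 in WT cells. The riser was Rabggtb, a subunit of the enzyme that adds the lipid, by 0.33 ± 0.06 in KO and 0.42 ± 0.06 in WT cells.

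Among these regulators Rin2, a GEF of Rab5, had the interaction of largest size, and Rilpl1 the one of smallest p. Rin2 was at -0.04, -0.16 and -0.14 in KO LPS, 0.96, 0.96 and 0.80 in KO PBS, 1.67, 1.84 and 0.98 in WT LPS, and 0.84, 0.66 and 0.32 in WT PBS. Its KO LPS arrays lay below those of every other group, and its WT LPS arrays, the highest, spread from 0.98 to 1.84. The interaction was -1.91 ± 0.26 (adjusted p = 0.00108), and -1.81 (adjusted p = 0.0169) once the slide was a term. Rilpl1, which binds Rab8 and Rab10 near cilia, had an interaction of -1.23 ± 0.13 (adjusted p = 0.000134), or -1.16 with the slide term, at levels of -1.23, -1.38 and -1.26 in KO LPS, -0.63, -0.91 and -0.87 in KO PBS, -0.55, -0.42 and -0.43 in WT LPS, and -1.21, -1.10 and -1.31 in WT PBS. Its LPS arrays lay below its PBS arrays in KO cells and above them in WT cells. Ankfy1, an effector of Rab5, had an interaction of -0.46 ± 0.07, or -0.40 (adjusted p = 0.0270) once the slide was a term. The other called interactions were 0.42 for Dennd1c, 0.38 for Tbc1d24, 0.36 for Rabep2 and -0.37 for Tbc1d9b. With the slide as a term these were not called, at an adjusted p of 0.103, 0.0542, 0.0757 and 0.139. By list 8.11% of effectors, 5.41% of GAPs, 5.41% of GEFs and 0% of membrane cycle genes were called for the interaction, against 4.31% of all genes.

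Tbc1d23, a GAP-like protein of endosome to Golgi transport, was higher in KO cells in both states, by 0.67 ± 0.05 after LPS and 0.68 ± 0.05 in PBS, or by 0.56 and 0.65 with the slide as a term. Its levels were 1.07, 1.08 and 1.16 in KO LPS, 1.68, 1.68 and 1.78 in KO PBS, 0.42, 0.46 and 0.43 in WT LPS, and 1.06, 1.03 and 1.01 in WT PBS. KO arrays were above WT arrays at each state. Chml, a Rab escort protein gene, was higher by 0.72 ± 0.11 in KO LPS than in WT LPS, and at 0.35 ± 0.11 in PBS (adjusted p = 0.0515). Across the lists 3 of 37 effectors (8.11%), 6 of 37 GAPs (16.2%), 3 of 37 GEFs (8.11%) and 1 of 8 membrane cycle genes (12.5%) were called between genotypes in PBS, against 14.1% of all genes. After LPS the counts were 8 (21.6%), 13 (35.1%), 12 (32.4%) and 2 (25%), against 39.5% of all genes. With the slide as a term the PBS counts were 8, 7, 4 and 1, against 15.2% of all genes, and the LPS counts 3, 2, 1 and 1, against 5.84%.

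**Figure D5:**
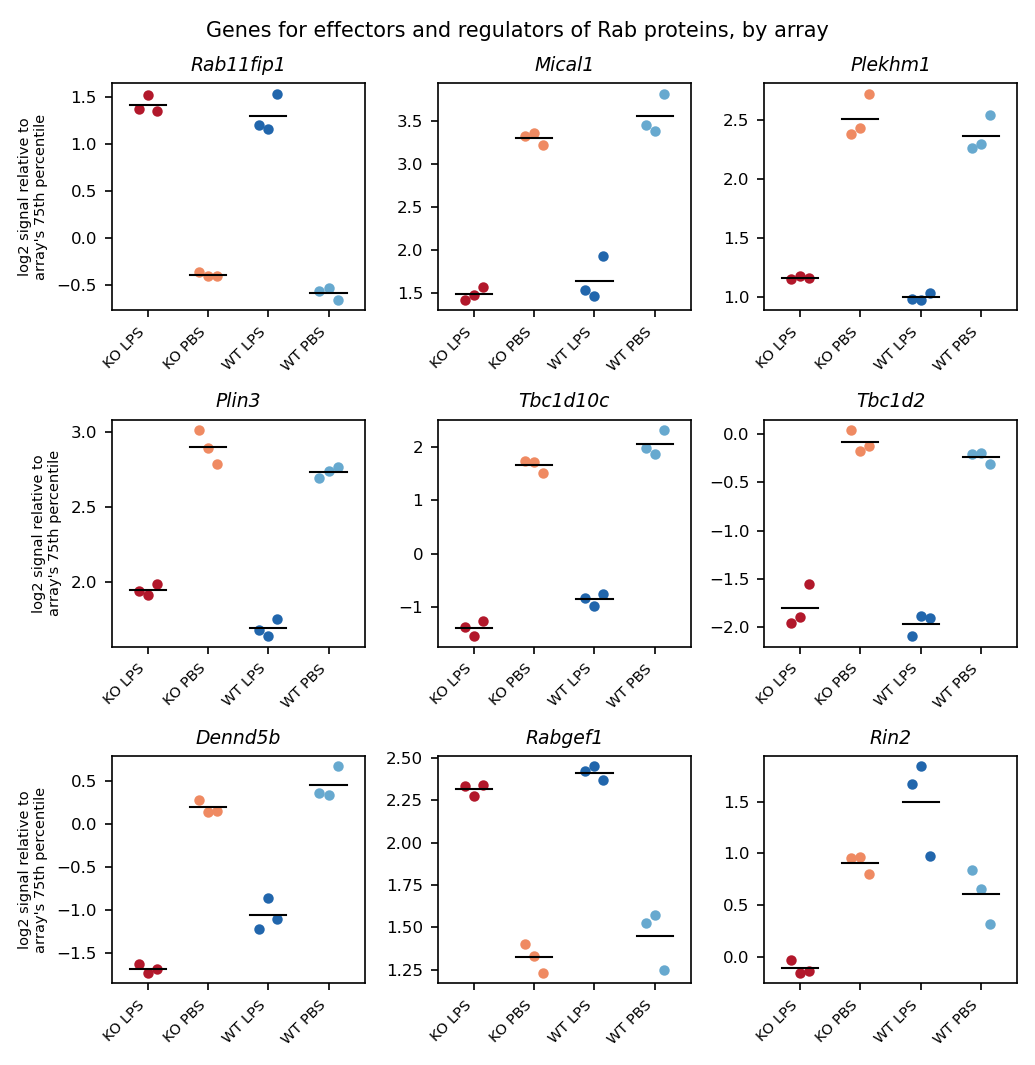
Level (log2 signal relative to the array's 75th percentile, vertical axis, scaled per gene) of 9 genes for Rab effectors, GAPs and GEFs, by group, with 1 point per array and a bar at the group mean. Rab11fip1 and Rabgef1 are higher after LPS in both genotypes, 6 genes are lower after LPS in both, and Rin2 is lowest in KO LPS and highest in WT LPS.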

How the data were processed

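RNA of 12 macrophage cultures, 3 per group, was measured on 1-colour Agilent arrays. The authors deposited scanner intensity per spot, extracted with Agilent Feature Extraction 11.5.1.1 per the submitters' processing notes; gProcessedSignal is background-corrected per the file headers, and the flags for background and outlier spots come from the same files. The precision is limited by 3 arrays a group.

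Spots of a probe were averaged without marked outliers, taken to log2 and centred on each array's 75th percentile over non-control spots. Probes were named through the RefSeq accession in the design column: 32994 of 56605 probes (58.3%) had a symbol in the RefSeq table (GRCm38.p6), which lists 59 symbols of the Rab form. A probe was kept where the scanner flag put it above background on each of the 3 arrays in 1 group or more, and the brightest kept probe stood for its gene; 18 Rab genes had several kept probes, and none had probes called in opposite directions. No array was saturated at any spot.

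Group means were fitted to all 12 arrays with limma 3.58.1 (R 4.3.3; lmFit, eBayes with trend), p-values were two-sided and adjusted by Benjamini-Hochberg over 13283 genes per comparison, and ± after a change is its standard error. The fit was tested on simulated arrays with known changes. Array values are given for each Rab gene called with a change of at least 2-fold in a comparison of groups, or for the interaction with at least 1.5-fold. Rab regulators in the text were taken from the up to 4 called genes of smallest p per list and comparison. Not all of those are named, mainly in the comparisons of KO with WT. A gene that this rule named is not reported here. The members and lists were chosen with earlier results of these data known, so neither is independent support.

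WT LPS and WT PBS arrays of the same replicate number had deviations with correlations of 0.105, 0.371 and 0.481 over genes. Arrays of different number were not compared and no label links them, so whether the numbers pair the samples is not known. The main fit does not pair them. With the replicate block the called Rab genes went from 34 to 36 for LPS in WT cells and from 30 to 33 in KO cells. Between genotypes they went from 18 to 14 after LPS, but from 9 to 3 in PBS. Interaction calls went from 1 to 3. Alternatives were normexp (offset 50) on the median spot signal, since the files hold no mean signal, quantile or median scaling, other probe filters, the mean of all kept probes, eBayes without trend, fits of 2 groups, the slide as a fixed or random term or a single slide, the replicate block and each array left out.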

Additional observations from a re-analysis of the deposited data

Results flagged for a closer look

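Rab9, the gene of a late endosome to Golgi GTPase, was singled out because LPS moved it in opposite directions in the genotypes and the test of that difference passed its threshold. The LPS change in KO cells minus the LPS change in WT cells was -0.33 ± 0.07 (SE, adjusted p = 0.0277, limma), from a change of -0.17 in KO cells and 0.16 in WT cells, with all 3 KO LPS arrays below all 3 KO PBS arrays and all 3 WT LPS arrays above all 3 WT PBS arrays. Under the alternatives it ranged from -0.36 to -0.25 and was not called in 12 of 22, among them the slide as a fixed term, the slide as a random block, quantile normalisation and the mean of all kept probes. KO LPS arrays lay on slide 2 and the WT arrays on slide 1, and their part in this value was not separated beyond those fits.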

How the results depend on the processing

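The LPS counts were the most stable. Called Rab genes numbered 27 to 32 in KO cells and 28 to 35 in WT cells with an array left out, and 19 of 30 calls in KO and 22 of 34 in WT cells held under every alternative run. With an array left out 59.4% to 71% of all genes were called in KO cells and 59.7% to 69% in WT cells. KO against WT in PBS, 9 in the main fit, gave 2 with only both groups fitted, 5 within 1 slide, 3 with the replicate block and 1 to 11 with an array left out. In the same order the share of all genes called, 14.1% in the main fit, was 6.02%, 8.18%, 8.84% and 6.9% to 19.4%. KO against WT after LPS, 18 in the main fit, gave 1 with the slide as a fixed term, 5 with the slide as a random block, whose correlation was 0.39, and 12 to 22 with an array left out. The share of all genes called moved likewise, from 39.5% to 5.84%, 11.3% and 28.3% to 46% in the same order. The interaction, 1 in the main fit, gave 0 with the mean of all kept probes and with the slide as a random block, 3 with the replicate block and 0 to 11 with an array left out. Of all genes 4.31% were called for it in the main fit, 7.57% with the replicate block and 2.71% to 21.1% with an array left out. The replicate block left 33 calls for LPS in KO cells, 36 for LPS in WT cells and 14 after LPS between genotypes. In that order 71.2%, 68.4% and 32.5% of all genes were called. The labels do not say whether same-numbered arrays share anything but a number.

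Directions turned with quantile normalisation for LPS in KO cells in Rab14 (-0.13) and Rab35 (-0.026), and for LPS in WT cells in Rab10 (-0.16), Rab18 (-0.14), Rab35 (-0.031) and Rab7 (-0.14). They turned after LPS between genotypes for Rab2b with the mean of all kept probes (-0.049) and Rab8a with the slide as a fixed term (0.055), and in PBS for Ankrd27, a GEF gene, with the mean of all kept probes (-0.024). The cause was not tested. Dim genes such as Rab3a, Rab3b, Rab13 and Rab33a lay near background after LPS, which limits the size of their falls.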
